A study of Mus musculus with 9 samples.

Results

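The genes described here are 56 named genes that lie on both sides of Col1a1 on mouse chromosome 11, with Col1a1 itself and the Hoxb cluster left out. They were chosen by position from a list of symbols. Each probe set of the deposited table took the RefSeq symbol of its Entrez Gene number, or the platform's symbol where RefSeq had none. A probe set was named for 55 of the 56 (none was named here for Sp2), out of 24011 gene symbols in the series. Calcoco2, which encodes an autophagy receptor, lay under the level filter in its mean over all arrays, so 54 members were tested among 16808 genes. By RefSeq gene order, 37 of the 56 lie on the side of Col1a1 that begins with Sgca and 19 on the side that begins with Xylt2. All 56 fall among 85 protein-coding genes of that stretch.

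Each of the 9 samples was total RNA of large intestine from C57BL/6 mice, hybridised to an oligonucleotide array. The mice carried a short hairpin RNA together with rtTA, the activator that switches the hairpin on when doxycycline is given. The hairpin was FLuc.1309 in the control group, which is directed against firefly luciferase, a gene mice lack, or DHX9.1271 or DHX9.837 in the knockdown groups, both directed against the helicase gene Dhx9. Each group held 3 arrays, and every mouse, controls included, drank doxycycline at 1 mg/ml with 5% sucrose for 14 days from 4 weeks of age. The labels do not name the promoter that drives rtTA, the place of the hairpin cassette in the genome, or how many founder lines were used. Nor do they tie each array to an animal of its own, and the spread behind every p-value is that of these samples, which may be technical.

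Hairpins controlled by doxycycline are often placed just behind Col1a1 by recombinase-mediated insertion, because the locus is open in most tissues and tolerates a transgene there. The question addressed here is whether the genes around that locus differ between hairpin groups. Every group, control included, carried a hairpin with rtTA and had doxycycline, so an effect common to all groups would not show. The members share a neighbourhood and not a pathway: they include chromatin factors, an importin, enzymes, transporters, a gut hormone and a cell adhesion receptor.

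Values are log2 expression levels, called levels below. A difference between group means is a log2 fold change, and a gene was called when limma's test, with Benjamini-Hochberg adjustment over all genes tested, gave an adjusted p under 0.05. Dhx9 was lower in every knockdown array than in every control array, at 49.6% of the control signal with DHX9-1271 and 48.8% with DHX9-837. All 12 genes listed as markers of large intestine epithelium passed the level filter, and their mean per array lay between 11.5 and 11.7. Whether this list tells large from small intestine was not tested. Markers of small intestine were uneven between arrays. Their mean per array was 7.37 to 9.11 in control, 7.12 to 8.05 in DHX9-1271 and 7.42 to 9.88 in DHX9-837. The 3 groups overlapped. Some single genes of this list varied far more over all arrays. Defa24 ran from 5.54 to 11.96, Fabp6 from 4.62 to 10.45 and Lyz1 from 6.82 to 11.39. Others moved little, such as Lct (5.19 to 5.53) and Fabp2 (11.66 to 12.03). The cause of this spread was not tested. In bulk tissue, fewer cells of a type and less RNA per cell cannot be told apart.

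The promoters of 42 of the 56 members were found in RefSeq sequences of build GRCm38.p6, each holding 250 bases before the start site and 50 from it onward. Those of 5 members are printed. Nme1, Lrrc59 and B4galnt2 kept their call in every alternative that tested them with DHX9-837 (as did Abcc3, not printed), and Kpnb1 and Npepps are neighbours that were called in opposite directions. Capitals mark matches, on either strand and with overlaps allowed, to the E-box CACGTG, the CCAAT box CCAAT, the GC box GGGCGG or the TATA box TATAAA. Bases are written 5′ to 3′ on the gene's own strand.
Nme1 (chr11:93968223-93968522, minus strand): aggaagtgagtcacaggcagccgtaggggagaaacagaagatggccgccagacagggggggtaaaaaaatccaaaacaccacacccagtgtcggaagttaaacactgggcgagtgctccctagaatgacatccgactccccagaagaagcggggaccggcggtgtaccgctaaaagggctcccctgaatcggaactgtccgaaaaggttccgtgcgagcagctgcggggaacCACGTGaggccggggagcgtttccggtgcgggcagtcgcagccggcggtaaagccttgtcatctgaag
Lrrc59 (chr11:94629527-94629826, plus strand): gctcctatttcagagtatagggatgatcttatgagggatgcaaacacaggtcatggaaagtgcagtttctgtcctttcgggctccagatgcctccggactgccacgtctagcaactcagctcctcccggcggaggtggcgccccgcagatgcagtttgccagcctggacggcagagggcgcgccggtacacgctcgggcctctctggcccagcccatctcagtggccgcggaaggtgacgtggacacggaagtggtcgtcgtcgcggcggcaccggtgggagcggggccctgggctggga
Kpnb1 (chr11:97187843-97188142, minus strand): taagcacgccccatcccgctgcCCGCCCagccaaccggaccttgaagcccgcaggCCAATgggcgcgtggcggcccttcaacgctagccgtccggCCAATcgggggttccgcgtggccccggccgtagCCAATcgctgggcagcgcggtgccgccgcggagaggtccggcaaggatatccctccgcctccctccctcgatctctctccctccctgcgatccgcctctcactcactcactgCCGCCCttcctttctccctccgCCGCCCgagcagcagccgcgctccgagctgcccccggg
B4galnt2 (chr11:95914822-95915121, minus strand): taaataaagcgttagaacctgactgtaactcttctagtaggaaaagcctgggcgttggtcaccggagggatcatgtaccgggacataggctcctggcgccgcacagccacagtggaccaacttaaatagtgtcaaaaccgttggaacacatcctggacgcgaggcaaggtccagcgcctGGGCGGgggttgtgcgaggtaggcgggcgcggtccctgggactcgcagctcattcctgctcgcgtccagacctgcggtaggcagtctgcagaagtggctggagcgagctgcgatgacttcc
Npepps (chr11:97280527-97280826, minus strand): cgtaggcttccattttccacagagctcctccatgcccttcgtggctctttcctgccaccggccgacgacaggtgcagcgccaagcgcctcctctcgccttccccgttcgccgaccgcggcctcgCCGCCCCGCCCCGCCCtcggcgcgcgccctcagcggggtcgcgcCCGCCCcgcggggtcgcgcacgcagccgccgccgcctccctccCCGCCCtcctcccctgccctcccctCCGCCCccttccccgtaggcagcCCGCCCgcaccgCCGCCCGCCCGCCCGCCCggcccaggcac

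The Nme1 promoter held 1 E-box, at bases 233 to 238, that is, just before the start site at base 251. The Lrrc59 promoter held none of the letters searched. In the B4galnt2 promoter 1 GC box lay at bases 180 to 185. Kpnb1 had 3 CCAAT boxes and 3 GC boxes, and Npepps had GC boxes in a stretch of 79% G and C. Over all 42 member promoters the E-box was found in 14.3%, against 7.24% of 27025 promoters in the table, and the GC box in 54.8% against 35.9%. The CCAAT box was found in 26.2% against 38%, and the TATA box in 9.52% against 14.2%. The median G and C content was 60.1% in the member promoters and 52.7% over all promoters.

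Against control, 0 of the 54 tested members were called by limma with DHX9-1271 (10 had an unadjusted p under 0.05), where 4.41% of all genes tested were called. With DHX9-837, 10 were called (18.5%, beside 15.6% of all genes), with 5 up (beside 8.67% of all genes) and 5 down (beside 6.91%). Nme1, Lrrc59, Epn3, Igf2bp1 and Kpnb1 rose with DHX9-837. B4galnt2, Abcc3, Pdk2, Osbpl7 and Npepps fell. The largest of these changes, that of Nme1, was a log2 fold change of 0.54, or 1.45-fold. The members that changed lay on both sides of Col1a1, and the nearest member on each side was not called. In the marker lists, 4 of 12 epithelial genes fell with DHX9-837, and 5 of 7 macrophage, 4 of 9 B and plasma cell, 4 of 8 fibroblast and 3 of 8 endothelial genes rose. With DHX9-1271, where 0 members were called, 2 of 12 epithelial genes fell, and 2 of 7 macrophage, 2 of 9 B and plasma cell, 2 of 8 fibroblast and 4 of 8 endothelial genes rose. Their part in the members' values was not tested.

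**Figure D1:**
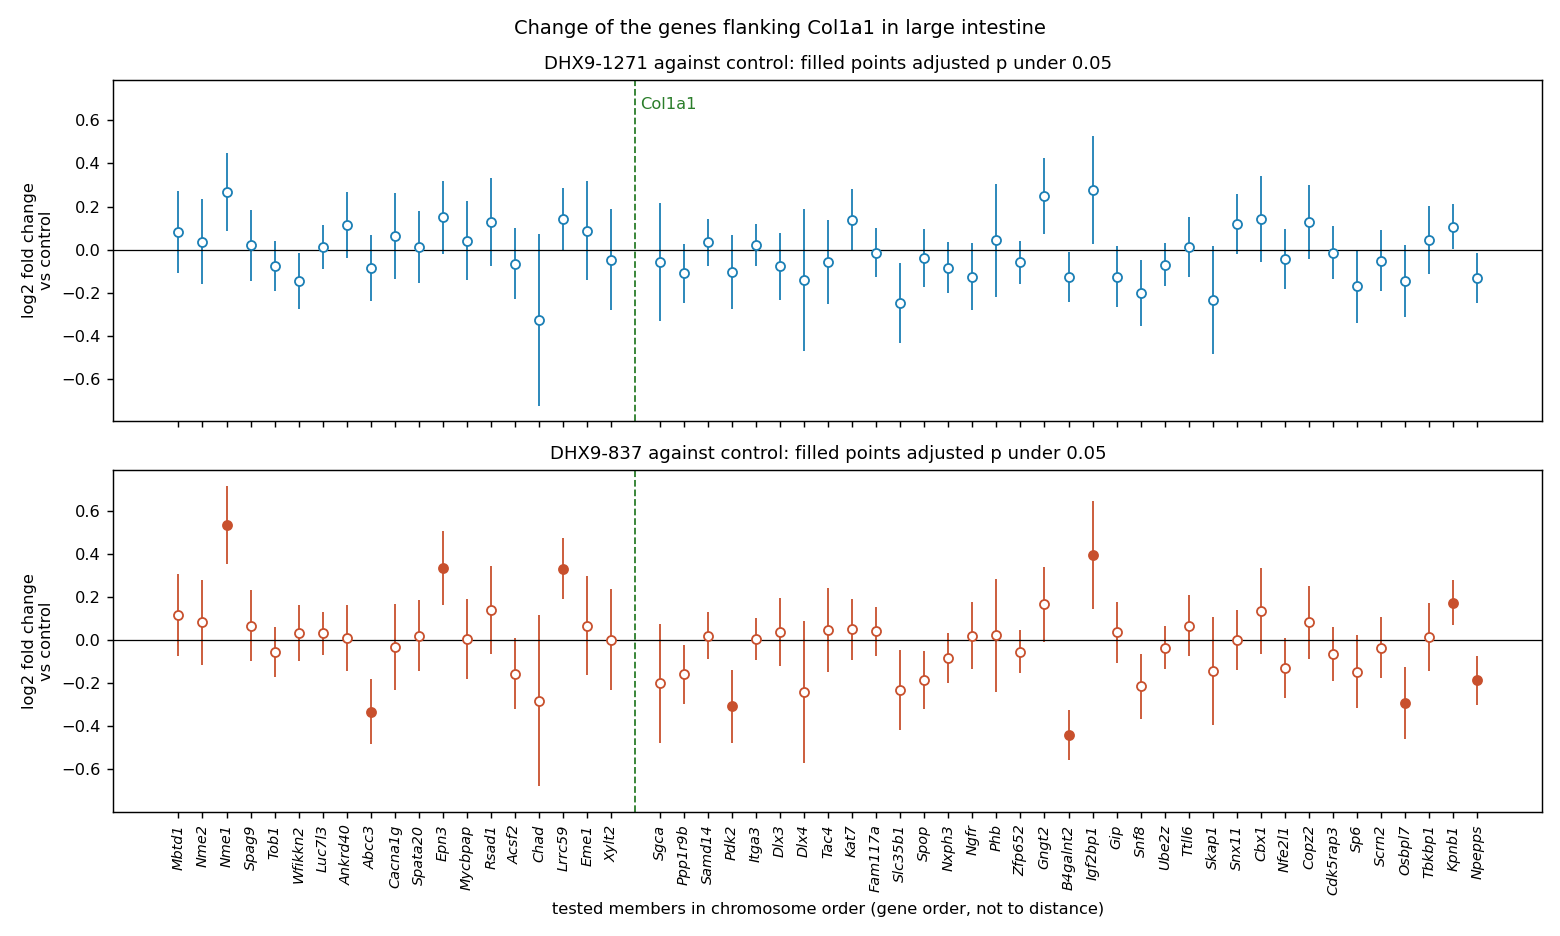
The log2 fold change of each of the 54 tested members against control, in chromosome order, with DHX9-1271 above and DHX9-837 below. Bars are 95% intervals, filled points were called at an adjusted p under 0.05, and the dashed line is the place of Col1a1. No point is filled with DHX9-1271, and the 10 filled points with DHX9-837 lie above and below 0 on both sides of the line.

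The members' shares were also read against those of all genes tested. The 10 members at an unadjusted p under 0.05 with DHX9-1271 were 18.5%, where 20.5% of all genes were. With DHX9-837, 14 members were (25.9%), where 30.1% of all genes were. For both hairpins together 8 members were called, or 14.8%, beside 13.5% of all genes. Of these 4 rose, where 8.13% of all genes did, and 4 fell, where 5.33% did. The hairpins differed from each other in 1 member, B4galnt2, or 1.85%, beside 1.9% of all genes. The comparisons share control or knockdown arrays and are not independent of each other.

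The folds were compared in the same way. The median log2 fold change of the 54 members was -0.026 with DHX9-1271 and 0.0069 with DHX9-837, where over all genes it was 0.0057 and -0.0012. Without regard to sign, the median size was 0.087 and 0.083 for the members, and 0.087 and 0.11 for all genes. Arrays that did not overlap between the groups were counted as a second measure. That held for 14 members with DHX9-1271 (25.9%, where 25.5% of all genes did not overlap) and for 17 with DHX9-837 (31.5%, beside 31.4%). It held for 10 members with both hairpins against control (18.5%, beside 17.5%), and for 11 between the hairpins (20.4%, beside 21.9%).

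**Figure D2:**
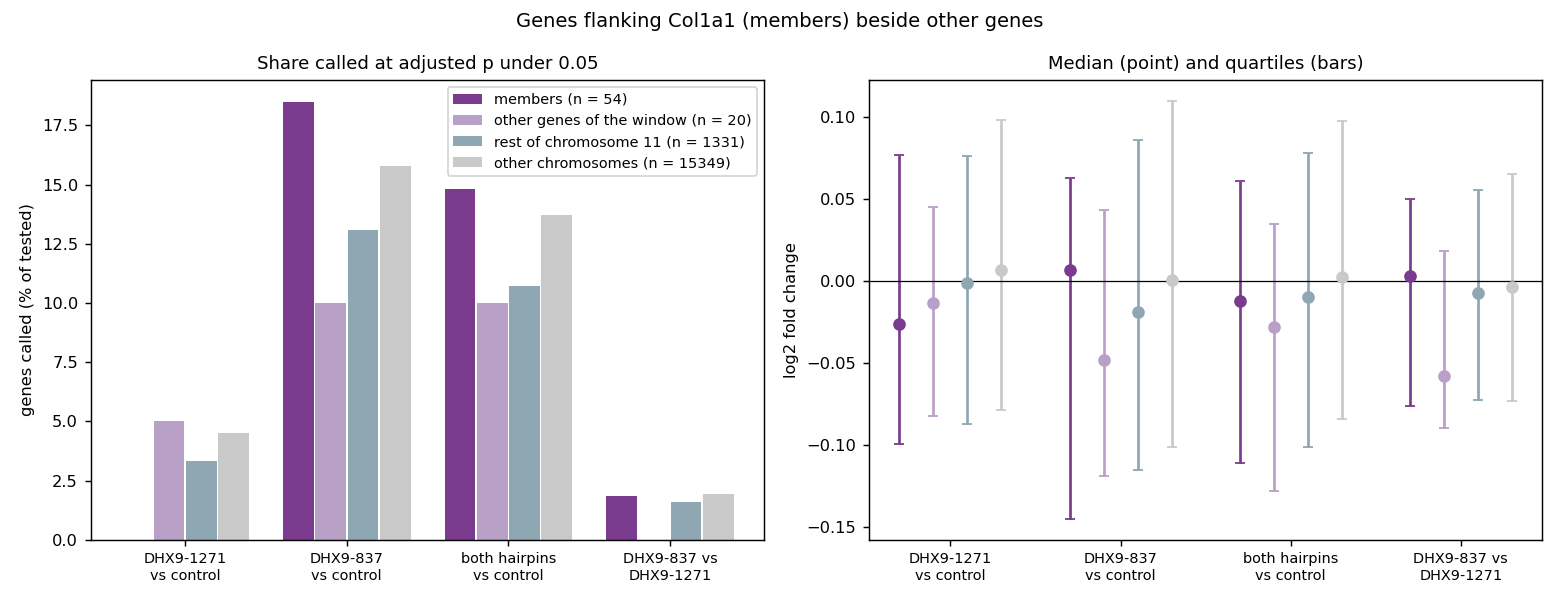
Left, the share of genes called at an adjusted p under 0.05 in 4 comparisons, for the 54 members, 20 other tested genes of the same stretch, 1331 genes of the rest of chromosome 11 and 15349 genes of other chromosomes. Right, the median log2 fold change of each group with its quartiles. The members' share was 0% with DHX9-1271 and 18.5% with DHX9-837, and their medians were -0.026 and 0.0069 in these comparisons.

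How closely the arrays bound a change can be read from the intervals. The median standard error of a member's log2 fold change against control was 0.070 for a single hairpin. With DHX9-1271 the 95% interval of 53 of the 54 members lay within a 1.5-fold change in either direction, and Chad was the exception. With DHX9-837 this held for 51 members, with Nme1, Chad and Igf2bp1 as exceptions. For members that were not called, a p over the limit does not show equal levels.

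The other genes of the stretch gave a second reference. Of the 20 tested genes there that are neither members nor Col1a1 or Hoxb genes, DHX9-837 changed 2, both down, with a median log2 fold change of -0.048. On the rest of chromosome 11 the call rate with DHX9-837 was 13.1%, and on other chromosomes 15.8%. Col1a1 itself, which encodes a chain of type I collagen, was not called against control with DHX9-1271 (log2 fold change 0.30, SE 0.082, adjusted p = 0.0836 by limma) or with DHX9-837 (0.0074, SE 0.082, adjusted p = 0.964). Its levels were 9.94, 10.26 and 10.07 in control, 10.35, 10.48 and 10.34 in DHX9-1271 and 10.08, 10.04 and 10.17 in DHX9-837. The DHX9-1271 arrays lay above all others. Col1a1 and the 10 tested Hoxb genes, counted together, had 6 of 11 down and 0 up with DHX9-837, and a median of -0.35. That was 54.5%, where 6.91% of all genes fell. With DHX9-1271 3 of 11 fell and 0 rose (27.3% called, beside 4.41% of all genes), with a median of -0.18. For both hairpins together 6 of 11 fell (54.5%, beside 5.33% of all genes down). Col1a1 was not among these calls, so all were of Hoxb genes.

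Nearest to Col1a1 on one side is Sgca, which encodes alpha-sarcoglycan of the muscle dystrophin complex. Its levels were 6.03, 6.26 and 5.95 in control, 6.01, 6.10 and 5.95 in DHX9-1271 and 5.61, 6.01 and 6.01 in DHX9-837. The groups overlapped, with 1 low DHX9-837 array, and the log2 fold change was -0.057 (95% interval -0.33 to 0.22) with DHX9-1271 and -0.20 (-0.48 to 0.074) with DHX9-837. On the other side the nearest member is Xylt2, a xylosyltransferase that starts glycosaminoglycan chains. Xylt2 levels were 6.49, 6.20 and 6.30 in control, 6.30, 6.27 and 6.28 in DHX9-1271 and 6.33, 6.53 and 6.14 in DHX9-837. Here too the groups overlapped, and the log2 fold change was -0.048 (95% interval -0.28 to 0.19) and 0.0029 (-0.23 to 0.24). Among the 10 members closest to Col1a1 on the Sgca side, 1 was called with DHX9-837 (Pdk2, 10%). Among the 10 on the Xylt2 side, 2 were (Lrrc59 and Epn3, 20%), beside 15.6% of all genes.

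Neighbouring members were compared as pairs. Of 43 pairs of tested members that are adjacent protein-coding genes in the RefSeq table, 0 pairs had both genes called in the same direction with DHX9-837. In 2 pairs both were called in opposite directions, B4galnt2 with Igf2bp1 and Kpnb1 with Npepps. In 13 pairs only 1 of the 2 genes was called. Adjacent pairs were not counted over all genes, so these pair counts have no share to be read against. On the Sgca side 2 of 35 tested members rose and 4 fell with DHX9-837 (17.1% called). On the Xylt2 side 3 of 19 rose and 1 fell (21.1% called). Of all genes tested 15.6% were called, with 8.67% up and 6.91% down.

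**Figure D3:**
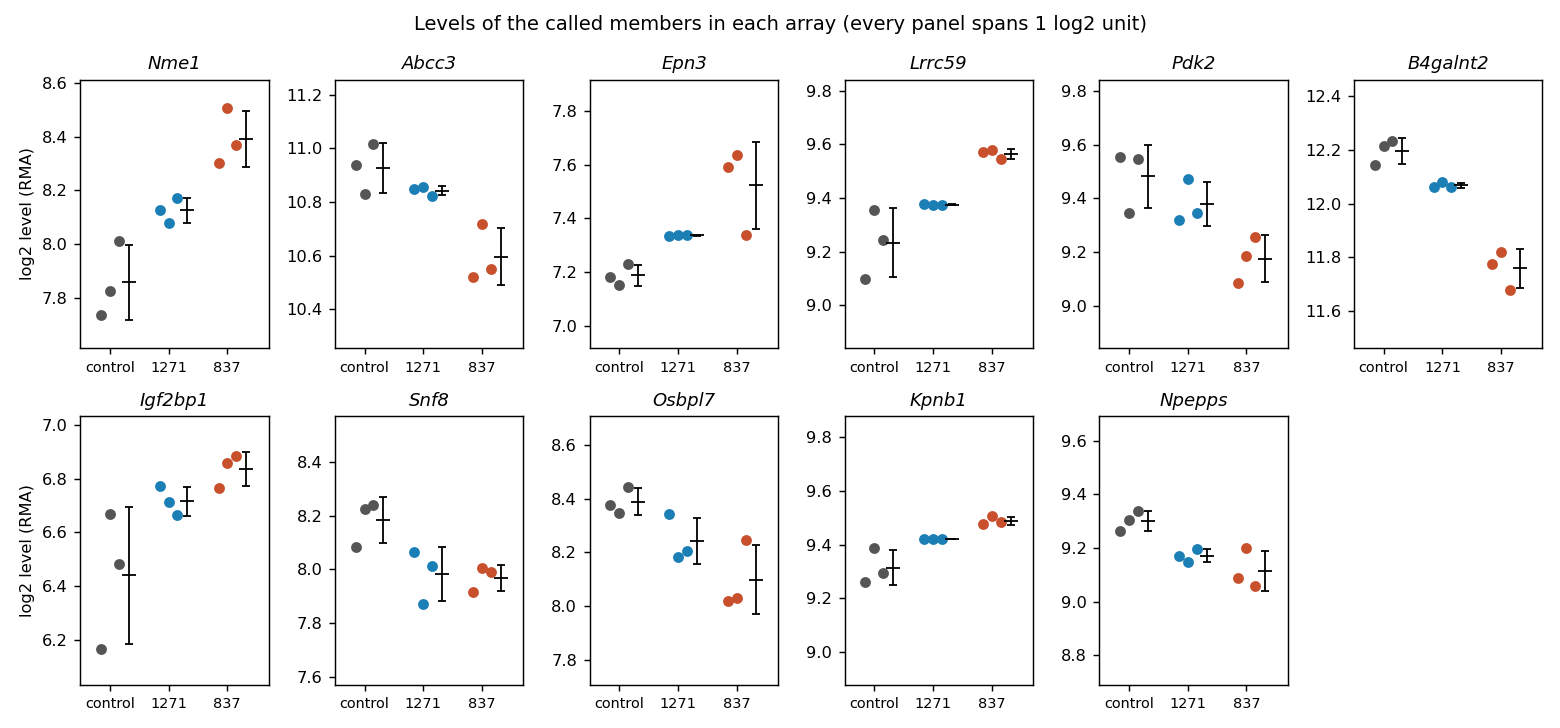
Levels of the 11 members that were called in at least 1 comparison, one panel per gene in chromosome order, each spanning 1 log2 unit. Points are single arrays (3 per group), and the bar beside them is the mean with its SD. In Nme1, Lrrc59 and B4galnt2 the DHX9-1271 arrays lie between the control and the DHX9-837 arrays without overlap.

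Among the 9 tested members that encode enzymes or mitochondrial proteins, 1 rose and 2 fell with DHX9-837 (33.3% called, beside 15.6% of all genes). Nme1 encodes a nucleoside diphosphate kinase, which keeps nucleoside triphosphates in balance. Its levels were 7.74, 7.83 and 8.01 in control, 8.13, 8.08 and 8.17 in DHX9-1271 and 8.30, 8.51 and 8.37 in DHX9-837. The 3 groups did not overlap, and control was lowest. With DHX9-837 Nme1 rose by 0.54 (SE 0.080, adjusted p = 0.0031 by limma), whereas with DHX9-1271 the log2 fold change of 0.27 was not called (SE 0.080, adjusted p = 0.101). Without control replicate 3 the DHX9-1271 value was 0.34 and called (adjusted p = 0.0498 by limma). The difference between the hairpins, 0.27, was not called (adjusted p = 0.153). Nme2, its adjacent near-identical relative, had levels of 5.75 to 6.10 and a log2 fold change of 0.083 with DHX9-837 (adjusted p = 0.575). No source used here gives the probe set definition, and how the array signal divides between these relatives is uncertain.

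B4galnt2 encodes the glycosyltransferase that adds a terminal N-acetylgalactosamine to form the Sd(a) blood group glycan, and gut epithelium is a known site of its expression. Levels were 12.14, 12.21 and 12.23 in control, 12.06, 12.08 and 12.06 in DHX9-1271 and 11.78, 11.82 and 11.68 in DHX9-837. The groups followed each other downward without overlap. The fall with DHX9-837 was -0.44 (SE 0.051, adjusted p = 0.000953 by limma), the smallest adjusted p among the members, and that with DHX9-1271 was -0.13 and not called (adjusted p = 0.202). B4galnt2 was the only member called between the hairpins (-0.31, SE 0.051, adjusted p = 0.0248). That call ended without DHX9-1271 replicate 1 (-0.313, adjusted p = 0.0938), replicate 2 (-0.305, adjusted p = 0.0821) or replicate 3 (-0.313, adjusted p = 0.114). It ended as well without DHX9-837 replicate 1 (-0.319, adjusted p = 0.08) or replicate 3 (-0.27, adjusted p = 0.0618). The mean of the 12 epithelial markers per array was 11.67 to 11.70 in control, 11.64 to 11.69 in DHX9-1271 and 11.50 to 11.57 in DHX9-837, with 4 of 12 down with DHX9-837. Its part in the result was not tested.

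Pdk2 encodes a kinase that switches off pyruvate dehydrogenase. Its levels were 9.56, 9.35 and 9.55 in control, 9.32, 9.47 and 9.35 in DHX9-1271 and 9.08, 9.19 and 9.26 in DHX9-837, where every array lay below every control array. Pdk2 fell by 0.31 with DHX9-837 (SE 0.075, adjusted p = 0.0259 by limma). The call ended without control replicate 1 (-0.27, adjusted p = 0.0799), control replicate 3 (-0.275, adjusted p = 0.0765), DHX9-837 replicate 1 (-0.261, adjusted p = 0.0826) or DHX9-837 replicate 2 (-0.312, adjusted p = 0.0649). The other 6 tested members of this group, among them Phb (prohibitin of the inner mitochondrial membrane) and Acsf2 (an acyl-CoA synthetase), were not called in any comparison.

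Of the 6 members listed here under RNA, nuclear import or translation control, Ankrd40 among them, 3 rose with DHX9-837, where 8.67% of all genes did. In this list 0 fell. Of these calls, those of Igf2bp1 and Kpnb1 each remained in only 1 of the 9 fits that left out an array. Lrrc59 encodes a ribosome-associated protein of the endoplasmic reticulum membrane. Its levels were 9.10, 9.35 and 9.25 in control, 9.38, 9.37 and 9.37 in DHX9-1271 and 9.57, 9.58 and 9.54 in DHX9-837. Again the groups did not overlap and control was lowest. Lrrc59 rose by 0.33 with DHX9-837 (SE 0.063, adjusted p = 0.00882 by limma) and by 0.24 with both hairpins together (SE 0.055, adjusted p = 0.0229), while DHX9-1271 alone gave 0.14 (adjusted p = 0.245). The call for both hairpins ended without control replicate 1 (0.17, adjusted p = 0.0585), control replicate 3 (0.243, adjusted p = 0.0561) or DHX9-1271 replicate 3 (0.238, adjusted p = 0.0537). Its neighbour Eme1, a partner of a DNA nuclease, had a log2 fold change of 0.068 with DHX9-837 (adjusted p = 0.706).

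Igf2bp1 encodes an RNA-binding protein that stabilises selected mRNAs. Its levels were 6.17, 6.67 and 6.48 in control, 6.77, 6.71 and 6.66 in DHX9-1271 and 6.76, 6.86 and 6.88 in DHX9-837. The control arrays were the most spread, and every DHX9-837 array lay above them. The rise with DHX9-837 was 0.40 (SE 0.11, adjusted p = 0.0434 by limma), and it was called in only 1 of the 9 fits that left out an array, that without control replicate 2 (0.511, adjusted p = 0.0114). Over the 9 fits the value ran from 0.259 (without control replicate 1, adjusted p = 0.0591) to 0.511. The largest adjusted p was 0.117 (without DHX9-837 replicate 3).

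Kpnb1 encodes importin beta, the carrier of proteins into the nucleus. Levels were 9.26, 9.39 and 9.30 in control, 9.42 in all 3 DHX9-1271 arrays, and 9.48, 9.51 and 9.49 in DHX9-837. The groups did not overlap, though the steps were small. Kpnb1 rose by 0.17 with DHX9-837 (SE 0.046, adjusted p = 0.0337 by limma) and by 0.14 with both hairpins (SE 0.040, adjusted p = 0.0488). Each call remained in 1 of the 9 fits that left out an array, that without control replicate 2 (0.21 and 0.176), and in the others the largest adjusted p was 0.0933 with DHX9-837 and 0.153 with both hairpins. Its DHX9-1271 values were identical, so their SD was 0. With arrays centred on their medians neither call held (0.149, adjusted p = 0.0635, and 0.113, adjusted p = 0.101, by limma). Tob1, Luc7l3 and Ankrd40 were not called in any comparison.

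The membrane receptors, channels and transporters had 6 tested members, of which 1 fell with DHX9-837 (16.7% called, beside 15.6% of all genes). Abcc3 encodes a transporter that exports organic anions and conjugates across the basolateral membrane. Its levels were 10.94, 10.83 and 11.02 in control, 10.85, 10.86 and 10.82 in DHX9-1271 and 10.52, 10.72 and 10.55 in DHX9-837. The DHX9-837 arrays were the lowest, and the other groups overlapped. With DHX9-837 Abcc3 fell by 0.33 (SE 0.067, adjusted p = 0.0114 by limma), a call that held in all 9 fits that left out an array. With both hairpins together it fell by 0.21 (adjusted p = 0.0463), and that call held in 2 of the 9 fits, those without control replicate 2 (-0.257) and DHX9-837 replicate 2 (-0.239), with an adjusted p up to 0.141 in the others. Itga3 (an integrin subunit), Ngfr (the low-affinity nerve growth factor receptor), Cacna1g (a calcium channel), Slc35b1 and Sgca were not called. Of these, Slc35b1 had both hairpin groups below control without overlap (log2 fold change -0.24 with both hairpins, adjusted p = 0.0578).

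In membrane traffic and lipid transfer, 6 members were tested, and 1 rose and 1 fell with DHX9-837 (33.3% called, beside 15.6% of all genes). Epn3 encodes an epsin, an adaptor of clathrin-mediated endocytosis found mainly in epithelia. Its levels were 7.18, 7.15 and 7.23 in control, 7.34 in all 3 DHX9-1271 arrays to 2 decimals, and 7.59, 7.64 and 7.34 in DHX9-837. Both hairpin groups lay above control. Epn3 rose by 0.34 with DHX9-837 (SE 0.075, adjusted p = 0.0176 by limma) and by 0.24 with both hairpins (SE 0.065, adjusted p = 0.0408). The DHX9-837 call ended without control replicate 1 (0.332, adjusted p = 0.0504), DHX9-837 replicate 1 (0.3, adjusted p = 0.0612) or DHX9-837 replicate 2 (0.278, adjusted p = 0.0565). The call for both hairpins remained in 1 of the 9 fits, that without DHX9-837 replicate 3 (0.289, adjusted p = 0.00494), and the largest adjusted p was 0.111.

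Osbpl7 belongs to the oxysterol-binding protein family of lipid carriers. Its levels were 8.38, 8.35 and 8.44 in control, 8.34, 8.18 and 8.20 in DHX9-1271 and 8.02, 8.03 and 8.25 in DHX9-837, and all hairpin arrays lay below control. Osbpl7 fell by 0.29 with DHX9-837 (SE 0.074, adjusted p = 0.0292 by limma). The call ended without control replicate 1 (-0.299, adjusted p = 0.0664), control replicate 3 (-0.265, adjusted p = 0.0829), DHX9-837 replicate 1 (-0.252, adjusted p = 0.0924) or DHX9-837 replicate 2 (-0.257, adjusted p = 0.0933).

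Snf8 encodes a subunit of ESCRT-II, which sorts membrane proteins into multivesicular bodies. Its levels were 8.08, 8.22 and 8.24 in control, 8.06, 7.87 and 8.01 in DHX9-1271 and 7.91, 8.01 and 7.99 in DHX9-837. Both hairpin groups lay below control without overlap. Snf8 was called with both hairpins together (-0.21, SE 0.058, adjusted p = 0.0465 by limma) but not with DHX9-1271 (-0.20, adjusted p = 0.133) or DHX9-837 (-0.21, adjusted p = 0.0629) alone. The call for both remained in 2 of the 9 fits that left out an array, those without control replicate 1 (-0.257) and DHX9-1271 replicate 1 (-0.228), with an adjusted p up to 0.134 in the others. With DHX9-837 alone it was called without control replicate 1 (-0.264, adjusted p = 0.0444) and without DHX9-1271 replicate 2 (-0.214, adjusted p = 0.0499). It was also called with the level filter at the median gene (adjusted p = 0.0416 by limma), with arrays centred (-0.24, adjusted p = 0.0339), with cyclic loess (-0.228, adjusted p = 0.0347) and with trend and robust moderation (adjusted p = 0.0437).

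The list headed protein turnover, Fam117a included, had 5 tested members, of which 1 fell with DHX9-837 (20% called, beside 15.6% of all genes). Npepps encodes the puromycin-sensitive aminopeptidase, which trims peptides in the cytosol. Its levels were 9.26, 9.31 and 9.34 in control, 9.17, 9.15 and 9.19 in DHX9-1271 and 9.09, 9.20 and 9.06 in DHX9-837, so that every hairpin array lay below every control array. Npepps fell by 0.19 with DHX9-837 (SE 0.051, adjusted p = 0.0384 by limma) and by 0.16 with both hairpins (SE 0.044, adjusted p = 0.0451). Each call remained in 1 of the 9 fits, that without DHX9-837 replicate 2 (-0.229 and -0.18), and the largest adjusted p was 0.116 and 0.121. Spop, the substrate adaptor of a cullin ubiquitin ligase, had all DHX9-837 arrays below control, 1 of them narrowly (levels 8.58, 8.47 and 8.44, beside 8.73, 8.58 and 8.73) but was not called (-0.19, adjusted p = 0.0674).

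With DHX9-1271 4.41% of all genes were called and 20.5% had an unadjusted p under 0.05, and with DHX9-837 15.6% and 30.1%. Beside these shares, the 9 tested members listed here under transcription and chromatin, Eme1 among them, held 0 calls in any of the 4 comparisons by limma. Of the 9, 1 had an unadjusted p under 0.05 with DHX9-1271 (11.1%) and 0 with DHX9-837. They include Kat7 (a histone acetyltransferase), Cbx1 (heterochromatin protein 1 beta), the homeobox genes Dlx3 and Dlx4 and the factor gene Nfe2l1, and their log2 fold changes with DHX9-837 ran from -0.24 to 0.14. The 8 signalling scaffold and cytoskeleton genes likewise held 0 calls in any comparison. With each hairpin 1 had an unadjusted p under 0.05 (12.5%, beside 20.5% and 30.1% of all genes). Their range was -0.23 to 0.25 with DHX9-1271 and -0.16 to 0.17 with DHX9-837. Among them is Skap1, an adaptor of T cell receptor signalling, whose levels of 5.64 to 6.19 were not called in any comparison (-0.23 with DHX9-1271, adjusted p = 0.273). T and NK cell markers, with 9 of 10 tested, had 0 called with DHX9-1271 and 1 up with DHX9-837.

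The 5 secreted peptide and matrix genes had 0 calls by limma in the 4 comparisons, where 15.6% of all genes were called with DHX9-837. With DHX9-1271 1 had an unadjusted p under 0.05 (20%, beside 20.5% of all genes). With DHX9-837 0 did (beside 30.1%), and with both hairpins 0 did (beside 29%). Between the hairpins 2 of the 5 were at that p (40%, beside 14.3% of all genes), and all 5 folds were above 0. Gip, the incretin hormone of K cells, which are known from the upper small intestine, had levels of 7.18, 7.25 and 7.16 in control, 7.16, 7.01 and 7.05 in DHX9-1271 and 7.34, 7.21 and 7.16 in DHX9-837. The groups overlapped, and the log2 fold change was -0.12 with DHX9-1271 (adjusted p = 0.299 by limma), 0.037 with DHX9-837 (adjusted p = 0.746) and 0.16 between the hairpins (unadjusted p = 0.0304, adjusted p = 0.277 by limma). The 10 small intestine markers all had folds below 0 with DHX9-1271 and above 0 between the hairpins, and their part in the Gip values was not tested. Chad, the cartilage matrix protein chondroadherin, had the largest fold of any member with DHX9-1271, and it was not called. Its levels were 5.58, 6.36 and 5.92 in control, 5.72, 5.44 and 5.72 in DHX9-1271 and 5.72, 5.51 and 5.78 in DHX9-837. The highest array was control replicate 2, and the log2 fold change was -0.33 (95% interval -0.72 to 0.073, adjusted p = 0.333 by limma) with DHX9-1271 and -0.28 (adjusted p = 0.329) with DHX9-837. Calcoco2, which was not tested, had levels of 3.92 to 4.32.

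The counts of called members moved when single arrays were left out. With DHX9-837 the 10 calls became 5 without control replicate 1, control replicate 3 or DHX9-837 replicate 1, and 6 without DHX9-837 replicate 2. The call rate over all genes fell in these fits as well, to 11%, 12.6%, 11.4% and 11.4%. For both hairpins the 8 calls became 4 without control replicate 1, 2 without control replicate 3, 5, 3 and 2 without DHX9-1271 replicates 1, 2 and 3, and 4, 5 and 5 without DHX9-837 replicates 1, 2 and 3. After centring of the arrays on their medians, 4 members rose and 7 fell with DHX9-837, and 2 rose and 7 fell with both hairpins. With cyclic loess the latter split was 3 and 7. Of the 54 tested members 29 had identical values in 2 or more arrays (53.7%, beside 45.3% of all genes).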

How the data were processed

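The deposited values are log2 expression levels of 24973 probe sets on 9 arrays (3 groups of 3, from the titles), which the authors obtained from the scans by RMA (oligo 1.30.0, R 3.1.1, per the submitters' processing notes). Build and probe set definition: not given in the sources used here. RMA usually gives all arrays 1 distribution, which hides a shift shared by most genes. The platform table named 24015 probe sets with 1 symbol each and did not list 958. Where a symbol had several probe sets, that with the highest mean stood for it, and genes with a mean under the 30th percentile (5.28) were left out. The fit used limma 3.58.1 in R 4.3.3, with group means over all 9 arrays and empirical Bayes moderation (6 residual and 2.84 prior degrees of freedom). Tests were two-sided. The method was tested on simulated data.

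Members and lists were chosen with earlier results of these data known. Members called in any of the 4 comparisons, the member nearest Col1a1 on each side and the largest fold of each comparison were named with values in every array. A few others (Nme2, Eme1, Slc35b1, Spop, Skap1 and Gip) were named after their values were seen. The RefSeq gene table (GRCm38.p6) gave gene order and the protein-coding genes of the stretch, and RefSeq's promoter sequences of that build their own coordinates. The marker lists for B and plasma cells, macrophages, fibroblasts, endothelium, muscle, enteric neurons and glia, enteroendocrine cells and adipocytes are given after the report. The alternatives changed the filter on levels, how probe sets were joined, the scaling (centring or cyclic loess) and the moderation. Joining probe sets by their mean repeated the counts of the main fit, since the 24015 named probe sets stood for 24011 symbols, and so tested little. Others fitted 2 groups alone, added the replicate number as a block, or left out an array. Leaving out genes with identical values was added after the data were seen. Arrays have no read depth, and their number limits the precision. Figures used matplotlib 3.10.9 in Python 3.11.15.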

Additional observations from a re-analysis of the deposited data

Results flagged for a closer look

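B4galnt2 stood apart because the effects of the hairpins against control differed in the test of the difference itself: DHX9-837 minus DHX9-1271 was -0.31 on the log2 scale (SE 0.051, adjusted p = 0.0248 by limma), and the 3 DHX9-837 arrays lay below the 3 DHX9-1271 arrays. Over the alternatives the value ran from -0.342 to -0.271 and was called in 10 of 17, with an adjusted p from 0.004 to 0.114. Not all of these could move the value. Leaving out a control array kept it at -0.3105, and joining probe sets by their mean repeated the main fit. Of the 9 fits that left out an array, 4 kept the call. These were the fits without a control array and that without DHX9-837 replicate 2. B4galnt2 was 1 of 54 tested members, or 1.85%, where 1.9% of all genes were called between the hairpins. Its DHX9-1271 replicates 1 and 3 had identical values (12.06), and the SD of that group was 0.0092.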

How the results depend on the processing

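With DHX9-1271 the 0 calls among members stayed at 0 in every alternative except that without control replicate 3, which gave 1, so the fits that left out an array ran from 0 to 1. With DHX9-837 the 10 calls became 6 with no level filter, 6 with the replicate block, 6 without genes that have identical values, and 4 with only the arrays compared, where 9.96% of all genes were called; leaving out an array gave 5 to 10. With both hairpins the 8 calls became 3 with no level filter and 4 with the replicate block, and leaving out an array gave 2 to 7. The 12 called with the filter at the median gene or with trend and robust moderation lay within 1.5 times. Between the hairpins the 1 call became 0 with no level filter, with the replicate block and without genes that have identical values, which removed B4galnt2, and leaving out an array gave 0 to 1. With DHX9-837 the call rate over all genes was 8.3% with no level filter and 13.6% with the replicate block. It was 25.6% without genes that have identical values, above the 15.6% of all genes in the report. That fit also left out 29 of the 54 tested members, among them B4galnt2, Epn3, Kpnb1 and Pdk2. Its 6 calls with DHX9-837 therefore came from fewer tested members.

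Replicate numbers gave no sign of pairing: deviations of arrays with the same number correlated between groups at -0.366 to 0.261, those with different numbers at -0.445 to 0.391, and 4 of 18 comparisons were highest with the own number. With the replicate as a block the all-gene calls went from 2618 to 2284 with DHX9-837.

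Signs were followed over the alternatives only for members that were called, nearest Col1a1 or largest in fold. Among these, signs changed only in small folds that were not called. Xylt2 was -0.0232 with arrays centred (DHX9-837), and leaving out an array took it from -0.0969 to 0.101 with DHX9-837, -0.113 to 0.0315 with DHX9-1271, -0.0878 to 0.0569 with both hairpins and -0.0489 to 0.149 between hairpins. Snf8 between hairpins was 0.00275 with cyclic loess and -0.0687 to 0.0282 with an array left out. With an array left out, Chad between hairpins ran from -0.0451 to 0.125, and Sgca with DHX9-1271 from -0.123 to 0.0324. The cause of these changes was not tested. Signal over background was not analysed here.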

Other observations

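Marker lists of other cell types of the gut are given for DHX9-837 against control by limma, each with the range of the list's mean level per array. Beside these counts, 8.67% of all genes rose and 6.91% fell. B and plasma cell genes had 4 of 9 up and 0 down, at 7.47 to 7.56 in control and 7.79 to 8.16 in DHX9-837. The 4 were Ms4a1, Pax5, Cd22 and Ighm. Cd79a, Cd79b and Blk were not called, nor were the plasma cell genes Jchain and Mzb1 (adjusted p = 0.0729 and 0.728 by limma). Macrophage genes had 5 of 7 up (7.67 to 7.76, then 8.13 to 8.17), fibroblast and matrix genes 4 of 8 up (8.82 to 9.08, then 9.16 to 9.28) and endothelial genes 3 of 8 up (7.55 to 7.60, then 7.71 to 7.75), with 0 down in each. Muscle genes had 0 of 8 called, with 3 at an unadjusted p under 0.05 (10.44 to 10.63, then 10.38 to 10.54). Enteric neuron and glia genes had 0 of 4 called, with 0 at that p (6.19 to 6.37, then 6.20 to 6.28). Enteroendocrine genes had 2 up and 2 down of 7 (8.15 to 8.25, then 8.22 to 8.24), and adipocyte genes 2 up of 4 (7.44 to 7.89, then 7.93 to 8.09). Small intestine genes had 1 of 10 down. Their part in the members' values was not tested.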
